A study of Mus musculus with 24 samples.

Results

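Serum miRNAs of mice fed a diet that produces non-alcoholic steatohepatitis (NASH) for 2 weeks were compared with those of mice fed chow for the same time. The members of the comparison are the miRNAs that the scanner software marked as detected on at least 2 of the 4 serum arrays of that week, and these were 317 of the 1881 mouse miRNAs on the array. The wider study covered liver and serum after 1, 2 and 6 weeks of either diet, with 2 arrays for each of 12 groups and 24 arrays in all. The NASH group (2 arrays) had received a choline-deficient high-fat feed, named CDAHFD in the labels, with 0.1% methionine. The control group (2 arrays) had received the solid chow CE-2. Both groups were C57BL/6NJcl males bought at 5 weeks of age, kept for 1 week before the diets began, and 8 weeks old when blood was drawn from the heart. RNA came from 200 uL of serum, and 2.5 ng of it was labelled with Cy3 for 1-colour Agilent miRNA arrays. Whether a group's arrays came from separate mice or from pools is not in the labels, and p-values below reflect only array-to-array spread, possibly technical.

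MicroRNAs are short RNAs that hold back messenger RNAs whose sequence pairs with their seed, the bases 2 to 8 from the 5′ end. Cells release some of them into blood, where they persist in vesicles, in lipoproteins and bound to proteins. A choline-deficient diet impairs the export of fat from the liver as lipoprotein, so that hepatocytes fill with fat, become injured and are followed by inflammation and scarring. miRNAs made mainly by hepatocytes, above all miR-122, are known to appear in blood when the liver is injured.

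The mature sequences below are from RefSeq on build GRCm38.p6. They belong to 8 of the 11 miRNAs called higher or lower in scaled signal in NASH serum, and to relatives that share their seed. The seed is in capitals. A sequence was found for 258 of the 317 members.
miR-34a-5p: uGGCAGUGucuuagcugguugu
miR-192-5p: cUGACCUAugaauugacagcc
miR-215-5p: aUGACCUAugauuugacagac
miR-148a-3p: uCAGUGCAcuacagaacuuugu
miR-148b-3p: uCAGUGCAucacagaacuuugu
miR-152-3p: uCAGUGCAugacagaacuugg
miR-181a-5p: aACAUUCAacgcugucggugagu
miR-181b-5p: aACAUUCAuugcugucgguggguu
miR-181c-5p: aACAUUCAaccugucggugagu
miR-181d-5p: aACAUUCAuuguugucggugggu
miR-214-3p: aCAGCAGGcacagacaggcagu
miR-140-3p: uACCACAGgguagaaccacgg
miR-5119: cAUCUCAUccuggggcugg

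On the same build, miR-34a-5p lies at chr4:150068473-150068494 on the plus strand, outside any other annotated gene span. miR-192-5p lies at chr19:6264857-6264877 (plus strand), close to a copy of miR-194-5p at chr19:6264658-6264679. miR-148a-3p lies at chr6:51269829-51269850 (minus strand), within the span of Gm38821. miR-214-3p, at chr1:162223438-162223459, falls within the span of Dnm3 and of the long non-coding gene Dnm3os. miR-140-3p, at chr8:107551288-107551308, falls within Wwp2, and miR-5119, at chr11:98262638-98262656, within Cdk12. miR-181a-5p and miR-181b-5p have a pair of loci each, one pair on chromosome 1 and one within the span of Nr6a1 on chromosome 2. The gene table gave spans only, so exon or intron was not assigned.

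The arrays differed in brightness between the diets. NASH arrays detected 338 and 313 miRNAs, against 301 and 235 on control arrays, a difference of 57.5, and the two-sided exact permutation p of 0.333 is the smallest that 2 against 2 arrays allow. The log2 signal used for scaling was 8.60 and 8.55 on NASH arrays, against 7.84 and 7.17 on control arrays, while the log2 spike-in signal was 10.74 and 11.03 on NASH arrays, against 10.73 and 10.70 on control arrays. Replicates differed by a median of 0.22 in log2 signal between the NASH arrays and by 0.57 between the control arrays, of which replicate 2 was the dimmest of the 4. On the slide NASH arrays lay in column 4 and control arrays in column 3, so the effect of diet and that of the column cannot be told apart.

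All values below are scaled signals, in multiples of the 75th percentile of the array's signal over 253 probes measured on every serum array. Values under a common floor of 0.0381 were set to it, which applied to 19.3% of the members' values. Differences are log2 (NASH minus control) and carry the standard error (SE) from a limma fit to all 12 serum arrays, and p-values were adjusted by Benjamini-Hochberg over the 426 miRNAs tested in serum. Signals of different probes do not rank the amounts of different miRNAs.

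In NASH serum 5 miRNAs rose and 6 fell at an adjusted p below 0.05. The risers were miR-34a-5p, miR-192-5p, miR-148a-3p and miR-122-3p, of which the last 3 are known from hepatocytes, with the little-studied miR-7040-5p. The fallers were miR-375-3p, known from pancreatic islets, miR-214-3p, known from fibroblasts and stellate cells, the seed relatives miR-181a-5p and miR-181b-5p, miR-140-3p, known from cartilage, and miR-5119. Among all tested miRNAs the share called was 1.17% higher in NASH and 1.41% lower in NASH, and all 11 calls were members. The NASH and control arrays did not overlap for 34 members that were higher and 120 that were lower in NASH, while 163 overlapped. Over all tested miRNAs the non-overlapping share was 7.98% higher and 28.4% lower in NASH. The members' differences ran from -3.01 to 4.36 with a median of -0.34, and those detected on all 4 arrays had a median of -0.48.

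That median moves with the scaling. Over the members detected on all 4 arrays it was -0.13 with median centring, -0.10 with quantile normalization, 0.53 without scaling and 0.53 when all probes set the percentile. Background handling moved it as well, to -0.64 with normexp correction in place of local subtraction and -0.67 on raw median signal. The calls split 17 higher to 1 lower with all probes, 11 to 1 without scaling and 8 to 3 with quantile normalization, against 5 to 6 as reported. A difference near -0.48 is therefore the typical one on this scale, and the sign of a miRNA close to it depends on the scaling. All 11 called miRNAs kept their sign under every scaling tried, but 6 passed with all probes and 6 without scaling. Those lost in both were miR-181a-5p, miR-181b-5p, miR-140-3p, miR-5119 and miR-214-3p, of which miR-5119 and miR-214-3p had -0.94 and -0.96 without scaling (adjusted p = 0.282 and 0.455).

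**Figure D1:**
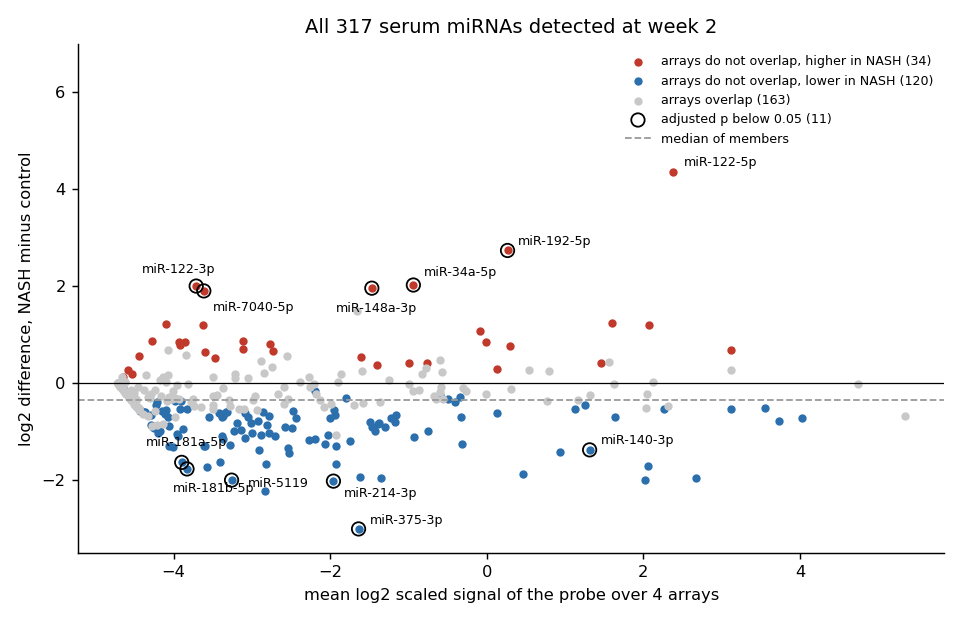
Log2 difference (NASH minus control, serum, week 2) of each of the 317 members against its probe's mean log2 scaled signal. The 34 red points lie above and the 120 blue points below their control arrays without overlap, and the 11 circled ones passed the test, 5 above and 6 below 0.

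Among liver miRNAs, miR-192-5p, which is abundant in liver, gut and kidney, had scaled signals of 2.76 and 3.49 in NASH serum, against 0.319 and 0.677 in control serum. Its lowest NASH value was far above its highest control value, and it rose by 2.74 on the log2 scale (SE 0.39, limma adjusted p = 0.0216), a 6.68-fold level. miR-148a-3p, which in mouse and human liver holds back the LDL receptor, had 0.785 and 0.648 in NASH serum, against 0.150 and 0.224 in control serum. The groups did not overlap, and the rise was 1.96 (SE 0.35, limma adjusted p = 0.0432). miR-122-3p, the passenger arm of the hepatocyte hairpin miR-122, had 0.185 and 0.127 in NASH serum and was detected on no control array, where its value was the floor. Its NASH level was at least 2.33-fold higher (limma adjusted p = 0.0210). The control arrays of weeks 1, 2 and 6 were all at the floor, so the standard error behind this p-value can be too small. On raw median signal the difference was 0.25 (limma adjusted p = 0.313), where all members had a median of -0.67.

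The guide arm miR-122-5p, a regulator of cholesterol and fat metabolism in hepatocytes, had 20.2 and 27.6 in NASH serum, against 0.399 and 3.30 in control serum. It had the widest difference of all members, 4.36 (SE 0.99, 95% interval 1.98 to 6.75), and the groups did not overlap. Its control arrays lay far apart, with a log2 SD of 2.16, and the limma adjusted p was 0.0668. Without control replicate 1 the difference was 2.84, and without control replicate 2 it was 5.89. Without NASH replicate 1 it was 4.59, and without NASH replicate 2 it was 4.14. miR-122-5p passed with normexp (limma adjusted p = 0.00179), all probes (0.00833), no scaling (0.0183) and no floor (0.00176), among other settings. It missed the threshold with median centring (0.0625), quantile normalization (0.0659), the slide row as a block (0.134) and the replicate number as a block (0.201). The same was true without a filter (0.417) and on the 4 arrays alone (0.539), among others. miR-194-5p, which is transcribed with miR-192 and miR-215, had 0.175 and 0.0865 in NASH serum, against 0.0407 and 0.0705 in control serum, a difference of 1.20 (SE 0.41, limma adjusted p = 0.217). All 4 of its values stood in order of diet, but the gap between the nearest arrays was small. With normexp its difference was -0.21, where all members had a median of -0.65.

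miR-34a-5p, which p53 induces and which holds back Sirt1, had 1.24 and 0.898 in NASH serum, against 0.256 and 0.261 in control serum. Its control arrays were nearly equal and both NASH arrays stood well above them, with a rise of 2.03 (SE 0.25, limma adjusted p = 0.0210). miR-7040-5p had 0.170 and 0.147 in NASH serum, against 0.0468 and 0.0381 in control serum, and control replicate 2 did not detect it. The rise was 1.90 (SE 0.24, limma adjusted p = 0.0210). With normexp background correction in place of local subtraction, the differences of both dim risers were close to 0, at 0.02 for miR-7040-5p and 0.09 for miR-122-3p. The median of all members was -0.65 in that setting.

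**Figure D2:**
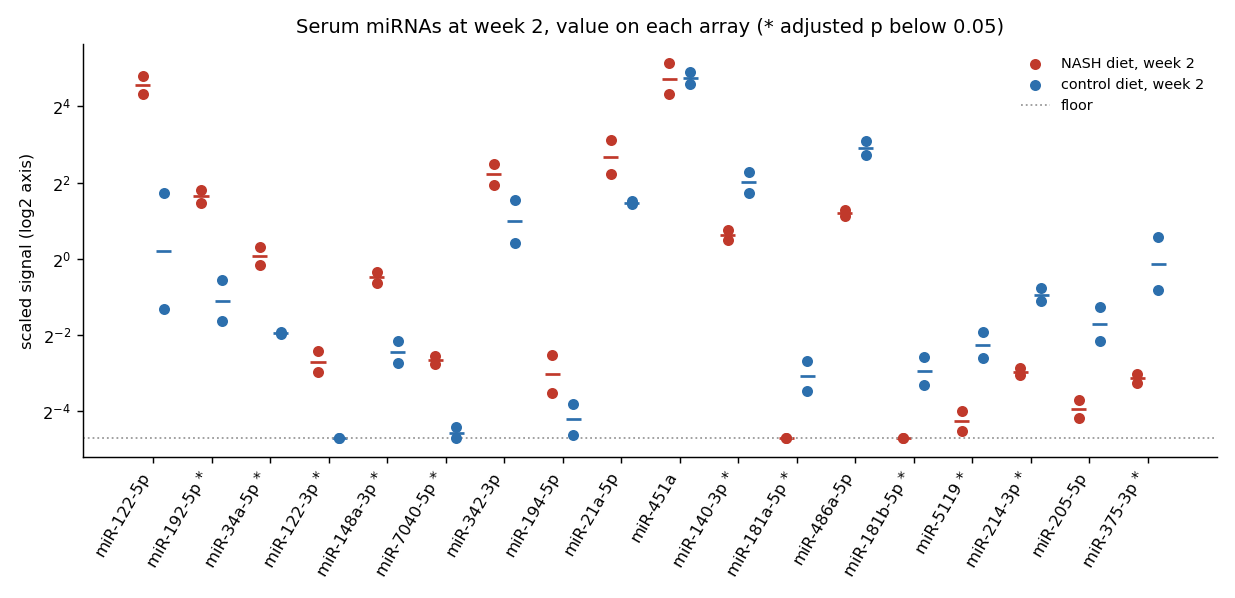
Scaled signal on each array (log2 axis) for the 11 called miRNAs, marked with an asterisk, and 7 others, with the NASH arrays in red left of the control arrays in blue, short lines at the mean log2 value and a dotted line at the floor. miR-192-5p at 2.76 and 3.49 in NASH serum stands clear of 0.319 and 0.677 in control serum, while miR-181a-5p and miR-181b-5p lie on the floor in NASH serum.

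Among the miRNAs that fell, miR-375-3p, which governs insulin secretion in islet cells, had 0.123 and 0.105 in NASH serum, against 0.562 and 1.48 in control serum. It had the deepest fall of all members, -3.01 (SE 0.45, limma adjusted p = 0.0246). The other 7 miRNAs listed for pancreas and neuroendocrine cells, miR-216a-5p, miR-216b-5p, miR-217-5p, miR-7a-5p, miR-129-5p, miR-124-3p and miR-9-5p, were detected on none of the 4 arrays. miR-214-3p had 0.137 and 0.120 in NASH serum, against 0.460 and 0.585 in control serum. The difference was -2.02 (SE 0.37, limma adjusted p = 0.0432), and replicates of each diet lay close together.

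miR-140-3p, which is made from an abundant hairpin in cartilage, had 1.70 and 1.40 in NASH serum, against 3.33 and 4.81 in control serum. It fell by 1.38 on the log2 scale (SE 0.23, limma adjusted p = 0.0392), and without scaling the difference was -0.31. Its other arm, miR-140-5p, differed by -1.29 (limma adjusted p = 0.0668). miR-5119 had 0.0630 and 0.0433 in NASH serum, against 0.165 and 0.264 in control serum, a fall of 2.00 (SE 0.36, limma adjusted p = 0.0432). Both miRNAs were detected on all 4 arrays, and in neither did the diets overlap.

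miR-181a-5p and miR-181b-5p, which shape the maturation of lymphocytes, were at the floor of 0.0381 on both NASH arrays. In control serum miR-181a-5p had 0.0897 and 0.156, and miR-181b-5p had 0.101 and 0.167. Their differences, -1.63 (SE 0.24) and -1.77 (SE 0.24), both with a limma adjusted p of 0.0216, therefore rest on the floor. With a floor lowered by 1 log2 unit they were -1.94 and -2.51. Since values set to the floor do not vary, these standard errors can be too small.

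With any 1 array of the week left out, all 11 called miRNAs kept their sign. The difference of miR-192-5p was 2.91 without NASH replicate 1 and 2.57 without NASH replicate 2. It was 2.20 without control replicate 1 and 3.28 without control replicate 2. For miR-375-3p the same 4 settings gave -3.12, -2.89, -3.70 and -2.31. A group left with 1 array has no spread of its own, so the number of calls then rests on the spread of the other groups. With the replicate number as a block, and the serum NASH array of week 6 that carries no number left out and the scaling redone, 7 miRNAs passed, 3 higher and 4 lower. Of the 11, miR-34a-5p, miR-7040-5p, miR-122-3p, miR-181b-5p and miR-214-3p passed there. The blocked adjusted p was 0.0751 for miR-192-5p, 0.0763 for miR-148a-3p, 0.0789 for miR-181a-5p, 0.0813 for miR-375-3p and miR-140-3p, and 0.112 for miR-5119. With the slide row as a block over all 12 arrays, 9 of the 11 were lost. miR-7040-5p, with control replicate 2 at the floor, and miR-122-3p, with both control arrays at the floor, passed. The others had an adjusted p of 0.0542 (miR-34a-5p, miR-192-5p, miR-181a-5p and miR-181b-5p) or 0.0748.

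Relatives with the same seed did not all move alike. The seed ACAUUCA, shown above for miR-181a-5p to miR-181d-5p, was shared by 4 members. All 4 were lower in NASH serum without overlap, from -1.77 to -0.58, with a median of -1.28 that stayed below 0 under every scaling tried. miR-181c-5p (-0.58) and miR-181d-5p (-0.92) did not pass, with limma adjusted p of 0.270 and 0.0522. All 4 were at the floor on both NASH arrays, so these values and the median rest on it, and without scaling miR-181c-5p and miR-181d-5p were 0. The seed UGACCUA of miR-192-5p is shared by miR-215-5p, which had 0.0459 and 0.0607 in NASH serum, against 0.0953 and 0.177 in control serum. The pair thus stood on opposite sides of 0, at 2.74 for miR-192-5p and -1.30 (SE 0.52, limma adjusted p = 0.259) for miR-215-5p. The other 2 members with the seed of miR-148a-3p, miR-148b-3p (-0.31) and miR-152-3p (-0.37), had positive values without scaling, of 0.63 and 0.45, against 3.03 for miR-148a-3p on that scale.

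Members from neighbouring hairpins, at most 10000 bases apart, did not all move alike, and 13 of 28 such clusters held values both above and below 0. miR-199a-5p, which has a locus beside miR-214-3p within Dnm3os, differed by -1.63 (SE 0.42, limma adjusted p = 0.0888) with no overlap, and its other arm miR-199a-3p by -0.43. All 6 members of the miR-17-92 cluster on chromosome 14 were below 0, from -0.53 to -0.22, and so were miR-106b-5p, miR-93-5p and miR-25-3p on chromosome 5, from -0.99 to -0.62. Without scaling miR-106b-5p, miR-93-5p and miR-25-3p were above 0, at 0.08, 0.44 and 0.37. Both arms of a hairpin were members in 33 cases, and their differences had the same sign in 26, where 240 of the 317 members were below 0. With both arms detected on all 4 arrays it was 11 of 16.

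Groups of miRNAs known from particular cells differed in their medians. Of the 12 hepatocyte-enriched members, 3 rose, 0 fell, and 9 were higher in NASH without overlap, 3 of them detected on no control array. Over all tested miRNAs 1.17% rose and 7.98% were higher without overlap. miR-122-3p, miR-193a-3p, miR-101a-3p, miR-193a-5p and miR-192-3p were members through the NASH arrays alone, so the group's counts and median lean on that filter. Of all members 30 were detected on both NASH arrays and no control array, and 1 the reverse. The group's median was 0.75 against -0.34 for all members, positive under every scaling but -0.16 with normexp, where all members had -0.65. Besides those described, miR-365-3p had 0.81 (limma adjusted p = 0.209) and miR-22-3p 0.69 (adjusted p = 0.243). With normexp these differences were -0.11 and 0.84. The one below 0 was miR-455-3p, at the floor on both NASH arrays, against 0.0432 and 0.139 in control serum, so that control replicate 2 set its value. The number of cells that release a miRNA and the amount released per cell cannot be told apart in serum.

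Red cell miRNAs had a median of -1.05 over 7 members, below 0 under every scaling (-0.04 without scaling), but none passed the test. The 1 member above 0 was miR-16-5p, at 0.44 (SE 0.46, limma adjusted p = 0.668), with overlap. It stayed above 0 under every scaling tried. miR-486a-5p, an erythroid miRNA, had 2.16 and 2.43 in NASH serum, against 6.64 and 8.52 in control serum. The difference was -1.72 (SE 0.33, limma adjusted p = 0.0514) without overlap. miR-451a, the miRNA that dominates mature red cells, had 19.9 and 35.4 in NASH serum, against 24 and 29.8 in control serum, a difference of -0.01 (95% interval -1.43 to 1.40). An index of red cell lysis (the log2 signal of miR-451a less that of miR-23a-3p) was 1.38 and 2.38 in NASH serum, against 1.58 and 1.15 in control serum (two-sided exact permutation p = 0.667).

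The muscle list had 4 members with a median of -1.42, below 0 under every scaling tried, and none passed. miR-133a-3p, which restrains growth of skeletal and heart muscle, had 1.30 and 3.16 in NASH serum, against 11.6 and 5.59 in control serum, a difference of -1.99 (SE 0.58, limma adjusted p = 0.136). miR-1a-3p, from the same muscle transcripts, had 0.0683 and 0.687 in NASH serum, against 0.212 and 0.185 in control serum, so that its NASH arrays enclosed both control values. In the epithelium and skin list (4 members, median -0.60, but 0.03 when all probes set the percentile) none passed. miR-205-5p, known from squamous epithelium, had 0.0766 and 0.0550 in NASH serum, against 0.223 and 0.412 in control serum. Its difference was -2.22 (SE 0.48, limma adjusted p = 0.0662), without overlap.

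Among 8 immune cell miRNAs, miR-181a-5p fell and none rose, where 1.41% of all tested miRNAs fell and 1.17% rose. The group's median was -0.29, and it turned positive with median centring, without scaling and with all probes. miR-342-3p, which lies within the Evl gene and is abundant in lymphoid cells, had 5.61 and 3.85 in NASH serum, against 1.34 and 2.91 in control serum, a difference of 1.23 (SE 0.46, limma adjusted p = 0.243). miR-223-3p of neutrophils and platelets overlapped between the diets, at -0.48 (95% interval -1.57 to 0.61), and so did miR-150-5p of mature lymphocytes, at -1.07 (limma adjusted p = 0.363).

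The 11 stellate cell and fibrosis members held 1 riser, miR-34a-5p, and 1 faller, miR-214-3p, against 1.17% and 1.41% of all tested miRNAs. Their median of -0.08 turned positive under every other scaling except normexp. miR-21a-5p, which rises in many injured tissues, had 4.66 and 8.62 in NASH serum, against 2.69 and 2.85 in control serum, a difference of 1.19 (SE 0.50, limma adjusted p = 0.274). miR-29a-3p, which holds back collagens, had 11.4 and 8.07 in NASH serum, against 7.68 and 8.16 in control serum, and the diets overlapped.

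The 7 let-7 members all overlapped between the diets. Their median was 0.46, above 0 under every scaling tried, and let-7g-5p had the widest difference, 1.48 (SE 0.90, limma adjusted p = 0.404). In the remaining groups no member passed. Their medians were -0.48 for 9 members of miR-17-92 and its paralogues, -0.32 for 6 platelet members, -0.32 for 4 from the imprinted Dlk1-Dio3 cluster and -0.29 for 11 from the Sfmbt2 cluster. They were -0.12 for 8 linked to lipid metabolism and -0.09 for 5 of the miR-30 family. All of these reached 0 or turned positive without scaling. The lone endothelial member, miR-126a-3p, had -0.18 and overlapped.

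**Figure D3:**
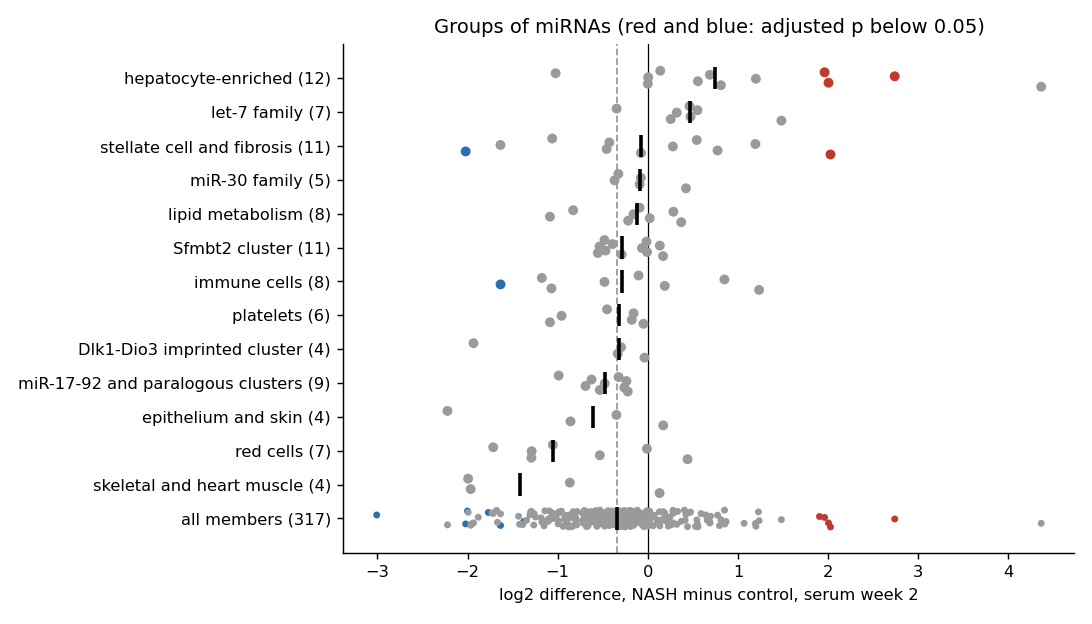
Log2 differences (NASH minus control, serum, week 2) of the members of each group with at least 4 of them and of all 317 members, with black bars at the medians, a dashed line at the median of all members, and red or blue for those that passed the test. The hepatocyte-enriched group has its median at 0.75 and 3 red points, and the muscle and red cell groups have medians of -1.42 and -1.05.

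None of the brightest probes passed the test. The 8 with the highest mean log2 signal were miR-3963, miR-451a, miR-5100, miR-3473b, miR-709, miR-29a-3p, miR-22-3p and miR-23a-3p, with differences between -0.78 and 0.69. miR-3963 had 22.5 and 45.6 in NASH serum, against 40.2 and 65.5 in control serum, with overlap. Members numbered 1000 or above, 114 of the 317, had a median of -0.38 and 2 calls. The rest of the 317, a larger group, had a median of -0.33 and 9 calls. Of all tested miRNAs, 1.17% were called higher and 1.41% lower.

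The same diet contrast at weeks 1 and 6 used other arrays but came from the same fit. Each miRNA thus had the same SE in every week, and a call at 1 week is not independent of a call at another. At week 1 6 of the 426 tested miRNAs passed (1.41%), and at week 6 51 passed (12%). Of the 11 called at week 2, 10 had the same sign at week 1 with 2 called there, and 11 had it at week 6 with 8 called there. miR-192-5p was 2.55, 2.74 and 2.68 higher at weeks 1, 2 and 6, with limma adjusted p of 0.0286, 0.0216 and 0.0145. miR-34a-5p had differences of 1.18, 2.03 and 2.80 (adjusted p = 0.104, 0.0210 and 0.00336). miR-375-3p had -1.86, -3.01 and -2.5 (adjusted p = 0.157, 0.0246 and 0.0203).

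miR-181a-5p was at the floor on all 4 arrays of week 1, where its difference was 0, and had -1.63 at week 2 and -1.35 at week 6 (adjusted p = 0.0174 at week 6). miR-122-5p had 15.4 and 19 in NASH serum at week 1, against 3.04 and 0.925 in control serum. At week 6 it had 18.2 and 25.9 in NASH serum, against 1.78 and 1.46 in control serum. Its differences of 3.35, 4.36 and 3.75 at weeks 1, 2 and 6 all missed the threshold, with adjusted p of 0.209, 0.0668 and 0.0557. miR-205-5p had -3.64, -2.22 and -2.96 and passed at weeks 1 and 6 (adjusted p = 0.0200 and 0.0157).

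The difference between week 2 and the mean of the other weeks was tested in the same fit, and 1 of 426 miRNAs passed (0.235%), with 11 at an unadjusted p below 0.05. That one, miR-155-5p, was no member, as 1 array of week 2 detected it, and it was looked up after its value was seen. Its difference was 0 at weeks 1 and 2 and -0.58 at week 6. Of the members, none passed. Furthest below 0 by unadjusted p was miR-181b-5p at -1.29 (SE 0.30, limma adjusted p = 0.548), followed by miR-181a-5p, miR-181d-5p, miR-3067-3p and miR-6944-5p, each with an adjusted p of 0.838. Those above 0 were miR-721, miR-344i, miR-203-3p, miR-712-5p and miR-212-3p, from 0.30 to 1.47, with an adjusted p of 0.548 for miR-721 and 0.838 for the others. Serum of week 6 lay on another slide, so week and slide cannot be told apart there.

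**Figure D4:**
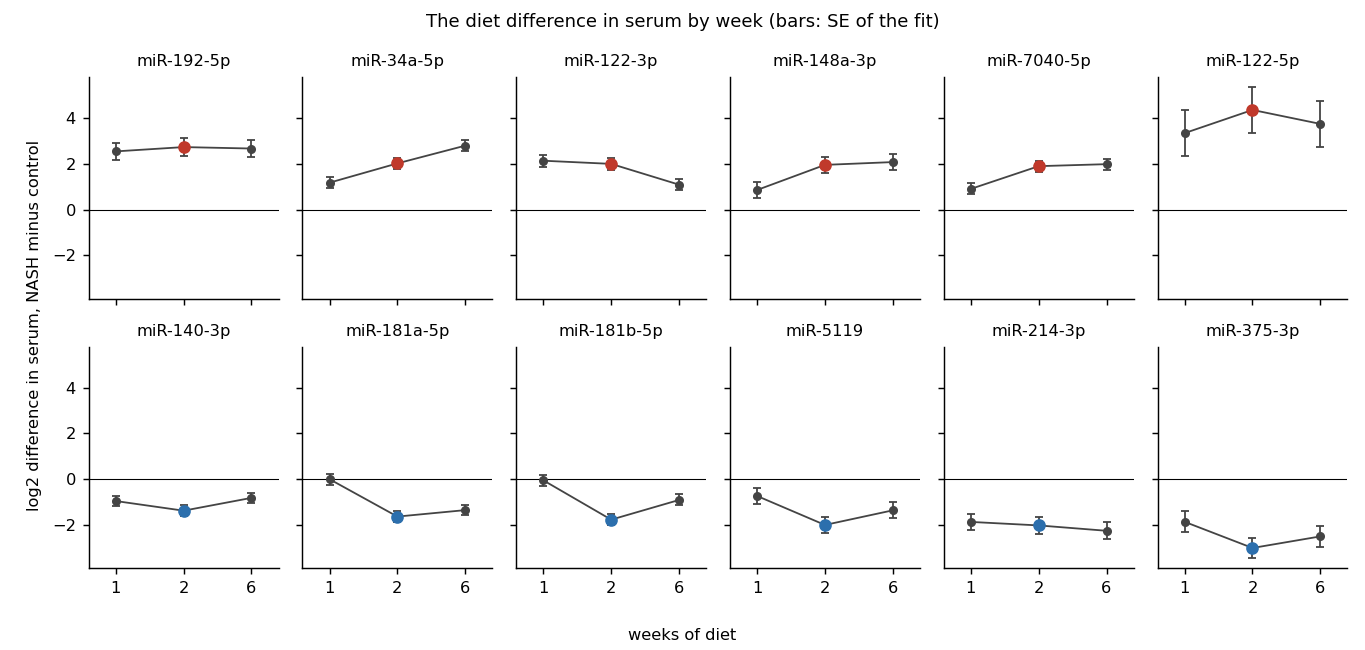
Log2 difference in serum (NASH minus control) after 1, 2 and 6 weeks of diet for the 11 miRNAs called at week 2 and miR-122-5p, with week 2 coloured and bars for the SE of the fit. miR-192-5p stays between 2.55 and 2.74, and miR-181a-5p is at 0 at week 1.

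In liver of the same week and diet, several of the serum calls had the opposite direction. There 119 of 388 tested miRNAs passed (30.7%). The diet difference in serum minus that in liver, each scaled within its tissue, passed for 97 of 293 miRNAs tested in both (33.1%), 21 above and 76 below 0. With the percentile over all probes that split was 36 to 7, and without scaling it was 10 to 11. Of the 11 serum calls 9 had a liver value, 1 passed in liver with the same sign, and 6 passed with the opposite sign. Serum and liver of week 2 lay on different slides, so tissue and slide cannot be told apart.

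miR-34a-5p was the one that passed in both tissues with the same sign. Its scaled signal in liver was 1.75 and 1.66 on the NASH diet, against 0.181 and 0.244 on chow, a rise of 3.02 (SE 0.20, limma adjusted p = 0.000130). The hepatocyte miRNAs went the other way in liver, where all were detected on 4 arrays. miR-122-5p had 74.6 and 77.2 in NASH liver, against 152.1 and 156.4 in control liver, a fall of 1.02 on the log2 scale (SE 0.09, limma adjusted p = 0.000559). miR-192-5p had 5.78 and 7.96 in NASH liver, against 18.3 and 19.1 in control liver, a difference of -1.46 (SE 0.23, adjusted p = 0.00385). miR-122-3p had -1.88 (adjusted p = 0.00248) and miR-148a-3p -0.80 (adjusted p = 0.0281) in liver.

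A group of 3 miRNAs that fell in serum rose in liver. miR-214-3p had 0.189 and 0.175 in NASH liver, against 0.0445 and 0.0486 in control liver, a rise of 1.97 (SE 0.14, limma adjusted p = 0.000171). miR-181a-5p had 0.0722 and 0.0590 in NASH liver, against 0.0225 and 0.0257 in control liver, where 0.0225 is the liver floor. Its rise of 1.44 (limma adjusted p = 0.000704) thus rests in part on that floor. miR-140-3p rose by 0.70 (limma adjusted p = 0.00120). miR-181b-5p was at the liver floor on all 4 arrays. miR-375-3p and miR-5119 were detected on none of the 4 liver arrays of the week, and miR-7040-5p was detected on 2 of them, at 0.27 (adjusted p = 0.228). Over the 178 members detected on all 4 serum arrays and tested in liver, the differences in the tissues correlated at r = -0.08, a description across miRNAs that share the arrays.

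**Figure D5:**
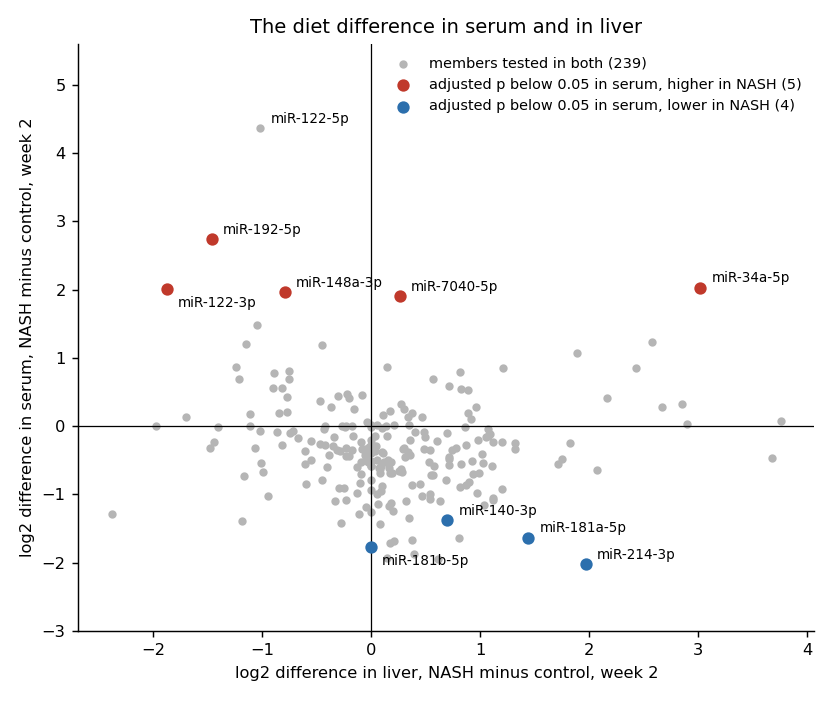
Log2 difference in serum (vertical) against that in liver (horizontal), both NASH minus control at week 2, for the 239 members tested in both tissues, with the 5 called higher in serum in red and the 4 called lower in blue. miR-122-5p, miR-122-3p, miR-192-5p and miR-148a-3p lie above 0 in serum and below 0 in liver, and miR-34a-5p lies above 0 in both.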

How the data were processed

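Scanner files of 24 arrays were read, 12 of them from serum. The values are the background-subtracted spot intensity deposited by the authors, extracted with Agilent Feature Extraction 11.5 per the submitters' processing notes, with no normalization between arrays. Control spots and outlier spots were left out, and spots were averaged per probe. Each serum array was divided by the 75th percentile over 253 probes well above background on all 12 serum arrays. Low values were raised to a floor: among scaled signals above background, the 5th percentile was found per array, and the median of these was used. All log2 values were computed here from the deposited intensity. The brightest probe stood for a miRNA. limma 3.58.1 (R 4.3.3) was fitted to 6 diet-by-week groups with eBayes, whose prior had 0.529 degrees of freedom beside 6 residual ones. The liver comparison used all 24 arrays. A miRNA was tested if detected on at least 2 of the 12 serum arrays. The fit was tested on simulated data.

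Same-numbered NASH and control arrays had deviations from their group means that correlated at 0.53, 0.13 and 0.18 in weeks 1, 2 and 6. The number also marks the row on the slide. The labels name no shared animal, so the block is an alternative. The normexp alternative used the median spot signal, as the mean signal was not used here. Of the members, up to 12 calls per direction were named if detected on all 4 arrays and up to 6 of the others. Also named were the 8 brightest, up to 4 per group, up to 5 per direction against other weeks and liver, and 18 fixed miRNAs. Seed relatives and genomic neighbours were added after their values were seen. The members, groups and lists were chosen with earlier results of these data known.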

Additional observations from a re-analysis of the deposited data

Results flagged for a closer look

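The diet difference at week 2 differed between serum and liver by the limma test of serum minus liver for the 14 miRNAs below, which were the serum calls tested in liver and those chosen for this difference. It was above 0 for miR-122-5p (5.39), miR-192-5p (4.20), miR-122-3p (3.88), miR-148a-3p (2.76), let-7g-5p (2.53) and miR-7040-5p (1.64). It was below 0 for miR-3102-5p (-4.15), miR-214-3p (-3.99), miR-7118-5p (-3.69), miR-181a-5p (-3.08), miR-5128 (-2.87), miR-140-3p (-2.08), miR-181b-5p (-1.77) and miR-34a-5p (-0.99). For miR-34a-5p both tissues were higher in NASH, with 2.03 in serum and 3.02 in liver. For miR-7118-5p, miR-3102-5p and miR-5128 the serum difference was small, at 0.07, -0.47 and 0.03, and the liver difference was 3.76, 3.68 and 2.89. let-7g-5p had 1.48 in serum and -1.05 in liver. For miR-181b-5p, at the floor in liver, the value is the serum difference alone.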

How the results depend on the processing

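With 2 arrays a group and 4 arrays a contrast, the count of calls moved with most settings, while the 11 called miRNAs kept their sign in every one that fitted them (8 of them where detection on all 4 arrays was required). Against 11 calls as reported, limma gave 324 on raw median signal (9 higher, 315 lower in NASH) and 3.4e+02 with normexp (9 higher, 332 lower). In both, the signal holds an unsubtracted or offset background when it is divided by the array's percentile. What this does to dim probes was not tested. The count was 18 with the percentile over all probes, 37 with no floor, 21 with a lower floor and 27 over the miRNAs detected on all 4 arrays alone. It was 0 over all 1881 miRNAs without a filter (70 at an unadjusted p below 0.05) and 0 on the 4 arrays alone (46 at an unadjusted p below 0.05). With the replicate block it was 7, and with the slide row as a block 5. Leaving out 1 array of the week gave 0 to 52. Other settings gave 11 to 15.

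For week 2 against the other weeks, 1 call became 0 with normexp, median centring, no scaling, no floor, a lower floor and the slide row, 4 with the replicate block, and 0 to 29 without 1 array. For serum against liver, 97 calls became 43 with all probes, 50 with quantile normalization, 21 without scaling and 51 to 95 without 1 array, and 99 with the replicate block. Members above 0 numbered 70 as reported and 30 both on raw signal and with normexp. Uncalled miRNAs that turned below 0 and passed in both included miR-203-3p (-0.58 and -0.58), miR-721 (-0.54 and -0.56) and miR-344i (-0.67 and -0.65). Of 77 members named by the rule, 42 uncalled ones changed sign in some setting, 31 of them with all probes. The difference of 57.5 in miRNAs detected stayed positive, at 24.5 to 90.5 without 1 array. Except where stated, the cause was not tested.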
